A study of Mus musculus with 3 samples.

Results

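TM2 was the cell class that the authors' reclustering of the drainage-tissue cells labelled TM_2, and it was examined here as the corneal endothelium because of 4 marker genes, *Cdh2*, *Atp1b1*, *Cldn10* and *Col8a2*. Its members were all kept cells that carried this label, so no expression threshold was set here. There were 1153 of them among 26008 kept cells, with 324 from control replicate 1, 504 from replicate 2 and 325 from the single *Angpt1*ΔNC library. The label itself came from clustering on the expression of these same cells, so the levels that set TM2 apart from other classes are given as a description, with no test.

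The series measured single-cell RNA in the iridocorneal angle and corneal limbus of mouse eyes, the ring of tissue where aqueous humor drains. Both controls carried *Angpt1* flox/flox without Cre, and the mutant library carried *Angpt1* flox/flox;Wnt1Cre+, in which Cre is driven in neural crest derivatives and removes angiopoietin-1. All mice were of mixed strain, crossed for 2 generations onto albino ICR mice and 6 weeks old. Each library pooled 4 to 6 eyes from 2 to 3 mice, described as males and females together, so a library and not a mouse or a cell was the replicate (n = 2 against n = 1).

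The corneal endothelium is a single layer of neural crest-derived cells on the inner face of the cornea. It moves ions and water out of the corneal stroma with the sodium pump and its partner transporters, which keeps the cornea thin and clear, and it lays down Descemet membrane, a thick basement membrane rich in type VIII collagen. In adults these cells divide little.

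TM2 cells held a median of 7033, 7254.5 and 7536 unique molecular identifiers (UMIs, counted RNA molecules) in control 1, control 2 and *Angpt1*ΔNC, and sums of 2459954, 3978508 and 2901426 UMIs. Mitochondrial genes took a median of 3.47%, 4.69% and 5.19% of them. Of the kept cells of a pair of libraries, 13 to 25 shared a barcode, and none of these pairs were both in TM2. In TM2, UMIs of Y-linked genes without *Xist* marked 237 and 393 control cells as male, and no control cell as female (0 of 324 and 0 of 504, which allows shares of up to 0.926% and 0.595%). In the *Angpt1*ΔNC library 77 TM2 cells were male by this rule, 217 had *Xist* and no Y-linked UMI, 7 had both and 24 had neither. Genotype and the sex of the cells therefore cannot be told apart in the full comparison, and values in the 77 male-typed cells are given below for genes whose call they change and for some others. Levels are the mean over cells of UMIs per 10000 UMIs of a cell, and they compare a gene between groups, since molecules were counted at the 3′ end and are not scaled by gene length.

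The start sites of 3 of the 4 markers are shown because these genes define the class, and because *Cldn10* has 2 annotated starts. That of *Cdh2* is not shown here. The windows run from 250 bases before to 50 after a RefSeq start (GRCm38.p6), 5′ to 3′ on the strand of the gene, and capitals mark a GC box (GGGCGG or its reverse complement) or a CCAAT box (CCAAT or its reverse complement). Of the 20 genes that led TM2 and the markers, 21 in all, 14 had a window. The first *Cldn10* window lies at chr14:118787621-118787920 (+), the second at chr14:118854700-118854999 (+), that of *Atp1b1* at chr1:164458306-164458605 (−) and that of *Col8a2* at chr4:126286544-126286843 (+).
Cldn10, upstream start: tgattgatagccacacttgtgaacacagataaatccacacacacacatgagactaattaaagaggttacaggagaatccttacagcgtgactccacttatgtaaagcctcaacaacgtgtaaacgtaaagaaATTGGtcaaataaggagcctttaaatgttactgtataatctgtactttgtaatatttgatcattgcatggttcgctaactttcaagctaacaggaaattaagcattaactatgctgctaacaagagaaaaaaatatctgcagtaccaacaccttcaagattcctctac
Cldn10, downstream start: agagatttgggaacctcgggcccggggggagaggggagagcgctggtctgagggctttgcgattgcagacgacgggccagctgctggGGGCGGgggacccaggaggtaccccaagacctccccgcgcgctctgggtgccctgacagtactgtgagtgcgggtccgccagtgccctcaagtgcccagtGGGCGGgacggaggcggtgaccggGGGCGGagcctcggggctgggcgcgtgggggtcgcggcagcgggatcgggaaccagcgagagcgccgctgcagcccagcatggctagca
Atp1b1: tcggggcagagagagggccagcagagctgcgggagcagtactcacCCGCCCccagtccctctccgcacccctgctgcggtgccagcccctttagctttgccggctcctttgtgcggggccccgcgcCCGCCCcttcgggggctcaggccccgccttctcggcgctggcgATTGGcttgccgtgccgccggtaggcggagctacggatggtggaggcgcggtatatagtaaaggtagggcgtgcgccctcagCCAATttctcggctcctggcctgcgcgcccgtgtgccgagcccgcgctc
Col8a2: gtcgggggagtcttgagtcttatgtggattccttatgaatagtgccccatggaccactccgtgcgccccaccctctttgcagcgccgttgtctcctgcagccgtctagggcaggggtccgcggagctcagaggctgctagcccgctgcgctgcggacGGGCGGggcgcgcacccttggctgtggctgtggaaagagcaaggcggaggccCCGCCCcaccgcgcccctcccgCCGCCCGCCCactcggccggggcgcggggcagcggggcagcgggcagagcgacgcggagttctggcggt

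The upstream *Cldn10* window was poor in G and C (36%) and held no GC box and 1 CCAAT box, whereas the downstream window was GC-rich (72%) and held 3 GC boxes and no CCAAT box. The *Atp1b1* window (71% G and C) held 2 of each, and that of *Col8a2* (71.7%) held 4 GC boxes. Across 32851 RefSeq windows of 300 bases, 35.7% held a GC box and 37.4% a CCAAT box, so either is common. The letters GCCNNNGGC (16.6% of windows), TGTTTAC (3.65%), TAATCC (7.06%) and TATAAA (13.6%), searched on both strands, were not in these 4 windows. Counts at the 3′ end do not tell which *Cldn10* start was used.

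All 4 markers were detected in TM2, and 3 of them were higher there than in any other class of the reclustered cells. *Cldn10* (chr14:118787908-118875489, mm10), a claudin of the tight junction, had TM2 levels of 8.03 in control 1, 12.9 in control 2 and 9.79 in *Angpt1*ΔNC. It was the marker found in most cells, with 92.9%, 97.6% and 94.2% of TM2 cells positive, against 0.274% to 0.769% of immune cells, whose median depth was 5873 to 6226 UMIs. The next class, TM5, had levels of 2.76, 3.23 and 3.36.

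*Atp1b1*, the beta subunit of the sodium pump (chr1:164437109-164458355), had levels of 2.60, 3.30 and 2.84 and was detected in 64.8%, 73.4% and 69.8% of TM2 cells. Its share in immune cells was 1.38% to 2.37%. *Cdh2*, the N-cadherin that joins corneal endothelial cells, had levels of 1.03, 1.30 and 0.806 with 50.3%, 55.6% and 43.1% of cells positive. At most 0.395% of surface epithelial cells had a *Cdh2* UMI, although these cells were deeper (median 15135 to 17717 UMIs). TM3 followed TM2 for both genes, with *Cdh2* at 0.276, 0.367 and 0.210 and *Atp1b1* at 1.22, 2.01 and 1.16.

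*Col8a2* (chr4:126286793-126314330), a chain of the type VIII collagen of Descemet membrane, was not particular to TM2. It was positive in 85.8%, 92.3% and 92.3% of TM2 cells at levels of 4.27, 5.15 and 6.34, while TM5 had 5.55, 5.72 and 6.12. All 4 markers were found together in 100, 206 and 98 TM2 cells (30.9%, 40.9% and 30.2%), and these cells were 82.6%, 79.2% and 79.0% of all kept cells with the 4. Of TM2 cells, 4, 0 and 3 had none of the markers.

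**Figure D1:**
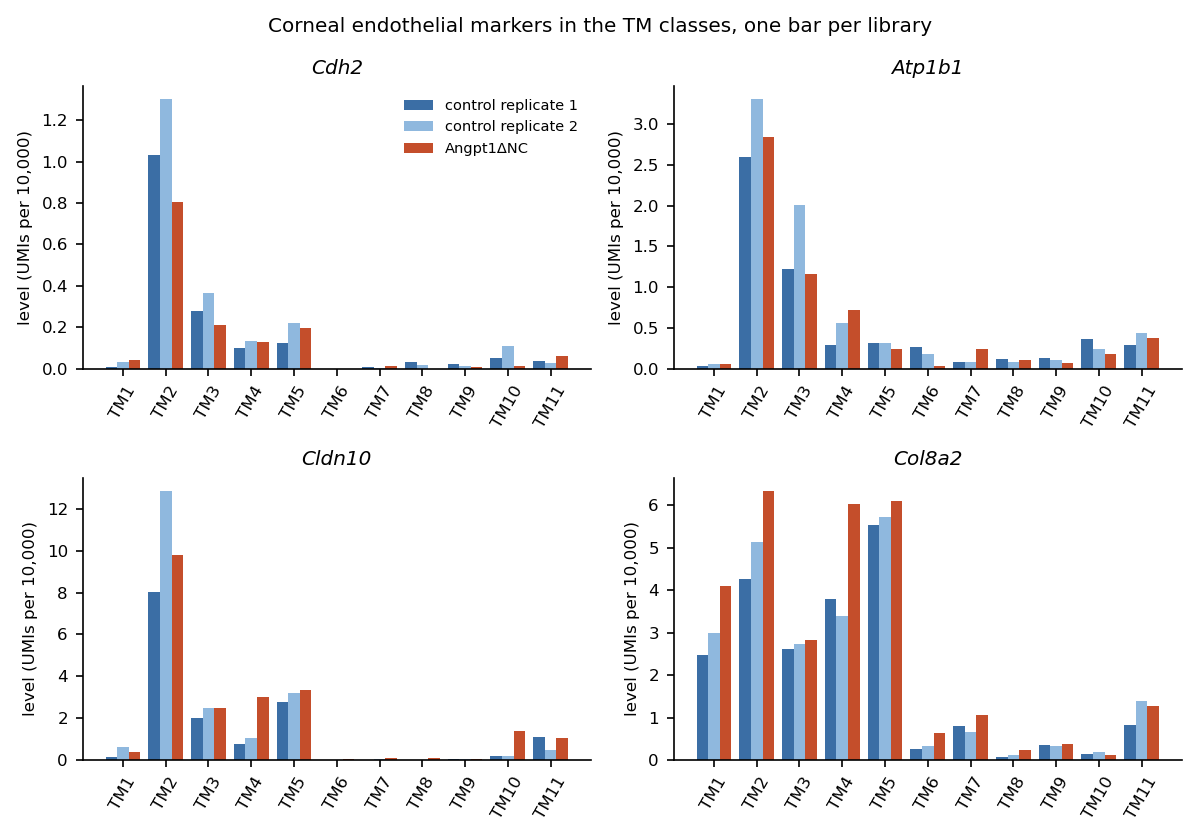
Level of each corneal endothelial marker (UMIs per 10000, y axis) in the 11 TM classes (x axis), with a bar for each library. *Cdh2*, *Atp1b1* and *Cldn10* have their tallest bars in TM2 in the 3 libraries, and for *Col8a2* the control bars of TM5 (5.55 and 5.72) stand above those of TM2 (4.27 and 5.15).

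Genes that define other cell types were then read in TM2 as a check of the label. *Slc4a11*, a membrane transporter of the corneal endothelium, was sparse, with 7.10%, 9.72% and 14.8% of TM2 cells positive against 23.96%, 15.3% and 14.9% of the deeper surface epithelial cells. Its level was higher in TM2 (0.131, 0.443 and 0.296) than in that epithelium (0.154, 0.101 and 0.105) in 2 of the 3 libraries. *Dcn*, the stromal proteoglycan decorin, was found in every TM2 cell at levels of 189, 207 and 254, and reached 413, 458 and 456 in TM1. *Myoc*, the secreted glycoprotein used as a trabecular meshwork marker, was positive in 74.1%, 80.4% and 68.3% of TM2 cells at 21.7, 33.0 and 19.8. Its level was higher in TM4 (62.8, 59.4 and 23.2). *Chil1*, another meshwork marker, was at 6.27, 7.71 and 4.08 in TM2 and at 51.3, 56.0 and 27.9 in TM4. *Aldh3a1*, a keratocyte marker, was at 0.331, 0.413 and 0.712 in TM2 and at 23.9, 27.1 and 14.2 in TM1. TM2 thus had the corneal endothelial markers together with *Dcn* and *Myoc*, while not all stromal and meshwork markers were high in it.

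Markers of several unrelated types were then summed over each list. Summed in this way, the TM2 levels were 0.500 to 0.665 for surface epithelium, 0.0445 to 0.0798 for blood and lymphatic endothelium, 0.341 to 0.536 for immune cells and 0.0144 to 0.0233 for Schwann cells. They were 0.787 to 1.12 for pigment cells, 0.0400 to 0.125 for lens and 2.04 to 3.94 for mural cells, nearly all of it *Acta2*, smooth muscle actin. *Angptl7*, another keratocyte marker, reached 31.1, 60.9 and 43.3 in TM1 and was at 0.0282, 0.0956 and 0.00795 in TM2. No TM2 cell had a *Cd3e* UMI, and *Ptprc*, the leukocyte antigen CD45, had 1 UMI in all.

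The other genes that led TM2 over the remaining TM classes included junction, receptor and neuropeptide genes. They are ranked by the ratio of TM2 to the other TM classes (0.1 added to both levels) in the control where it was lower, and no test applies. *Cldn10* was at the top with a ratio of 18.1. *Npy*, which encodes neuropeptide Y, followed at 17.5 with TM2 levels of 3.63, 6.90 and 6.47. *Krt18*, a keratin of simple epithelia, had a ratio of 11.5 and levels of 1.61, 2.27 and 1.25. In surface epithelium, which the ratio leaves out, *Krt18* was at 0.874, 1.58 and 2.67.

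*Adra1b*, a receptor for noradrenaline and adrenaline, had a ratio of 9.49 and levels of 2.88, 2.60 and 2.37. Genes of cell contact were the adhesion receptor *Cxadr*, with a ratio of 8.44, and the integrin subunit *Itga3*, with 4.75. Neither was particular to TM2. *Cxadr* was at 1.12, 1.49 and 1.02 in TM2 and at 1.36, 1.20 and 0.894 in surface epithelium. *Itga3* was at 0.515, 0.761 and 0.528 in TM2 and at 0.485, 0.453 and 0.471 in surface epithelium. *Tnfrsf11b*, the decoy receptor osteoprotegerin, had a ratio of 6.88 and levels of 9.34, 9.22 and 7.25, the highest of the 20 in control 1. The *Angpt1*ΔNC levels of *Cldn10*, *Npy* and *Itga3* lay between those of the controls.

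**Figure D2:**
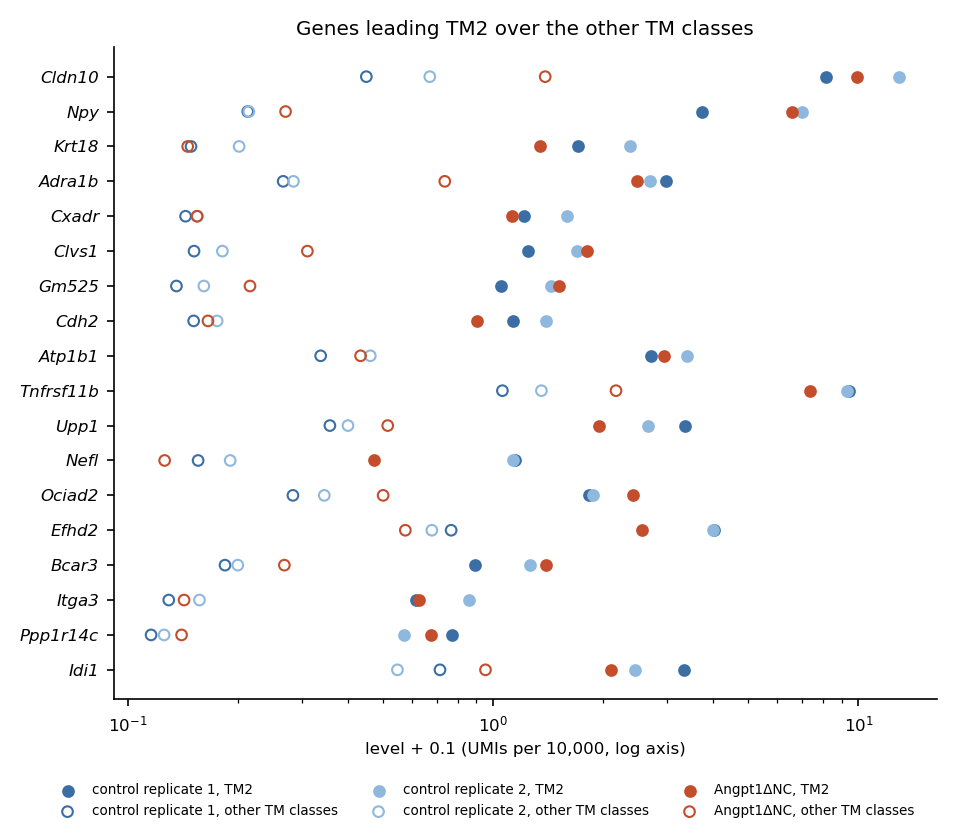
TM2 levels (filled) and levels over the other TM classes (open) of 18 of the 20 genes that led TM2, with 0.1 added, in UMIs per 10000 on a log axis and a color for each library. In every row the filled points lie to the right of the open ones, and *Nefl* is the gene whose *Angpt1*ΔNC point (0.373) is farthest below the controls (1.05 and 1.03).

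TM2 was not uniform inside a library. Genes were ranked by the variance of their residuals after the depth of each cell, by the library where it was lowest, which is a description of the cells and not a comparison of groups. *Spp1*, the secreted phosphoprotein osteopontin, was at the top. The 10% of TM2 cells with the highest level held 73.1%, 65.2% and 67.6% of its summed level. For *Ccl2*, a monocyte-attracting chemokine, the shares were 77.3%, 82.5% and 82.3%, and for *Csf3*, the granulocyte growth factor, 40.7%, 42.0% and 48.0%. *Cryab*, a small heat shock protein, was spread more evenly among the 20 genes, at 34.5%, 35.8% and 34.7%.

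*Npy* was the clearest case of a leading gene carried by few cells. Of TM2 cells, 25.9%, 27.2% and 26.8% had an *Npy* UMI, and the highest cell had 126, 704 and 381 UMIs. Cells with at least 10 UMIs numbered 29, 57 and 40 (8.95%, 11.3% and 12.3% of TM2) and held 82.9%, 93.8% and 93.5% of all *Npy* UMIs.

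A few other genes, picked after their values were seen, differed in these cells in the same direction in each library. *Car3*, a carbonic anhydrase, was at 5.50, 32.6 and 15.1 in them, against 0.743, 1.43 and 1.91 in TM2 cells without an *Npy* UMI. *Cxadr* was at 2.22, 2.14 and 2.60 against 0.876, 1.33 and 0.750, and *Cldn10* at 12.4, 20.7 and 14.3 against 7.13, 11.3 and 8.99. *Penk*, which encodes the enkephalin precursor, ran the other way, at 13.8, 15.2 and 5.32 against 25.1, 21.6 and 16.9. The *Npy*-high cells were deeper, with median UMIs of 7403, 9120 and 8865.5 against 6891, 7042 and 7404.5, and the part of depth in these values was not tested.

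**Figure D3:**
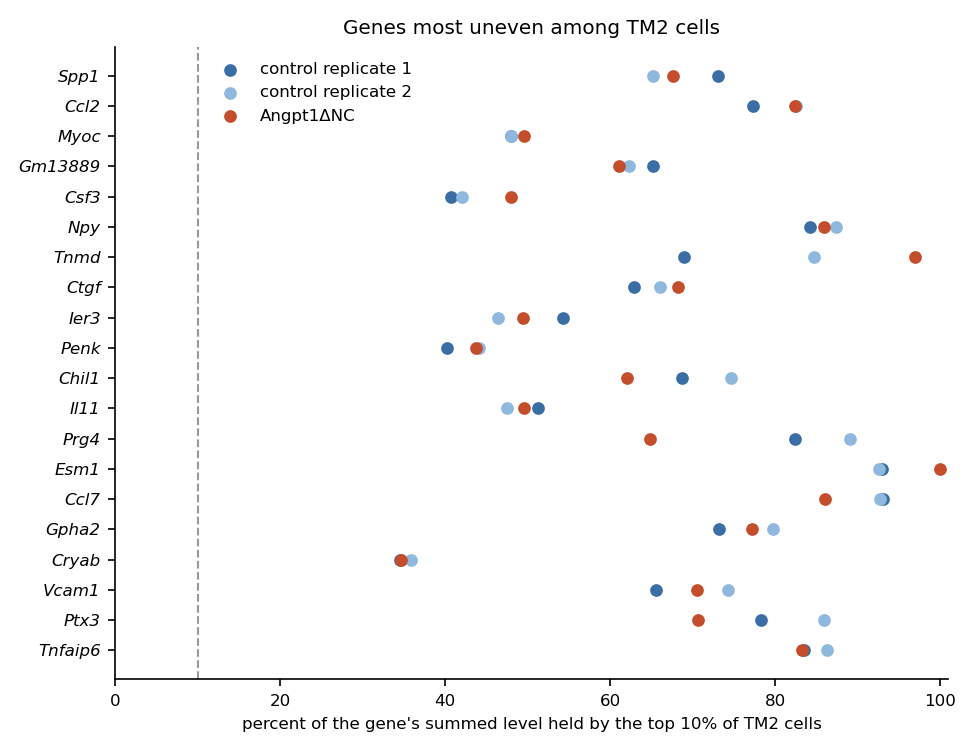
Percent of each gene's summed TM2 level held by the top 10% of TM2 cells (x axis) for the 20 most uneven genes, a point for each library, with the dashed line at 10%, where an even spread would fall. *Npy* lies at 84.2% to 87.3% and *Cryab* at 34.5% to 35.8%. Of the libraries, *Angpt1*ΔNC has the highest value for *Tnmd* (97.0%), with 13.5% of its TM2 cells positive.

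The number of TM2 cells was first compared between genotypes. TM2 made up 3.57% of kept cells in control 1 (95% exact binomial interval 3.20% to 3.97%), 4.96% in control 2 (4.55% to 5.40%) and 4.80% in *Angpt1*ΔNC (4.30% to 5.34%). The *Angpt1*ΔNC share lay between the controls, which averaged 4.27% ± 0.983 (SD, n = 2). Of the TM1 to TM11 cells, TM2 was 11.6%, 15.2% and 16.7%, a mutant share 3.34 percentage points above the control mean of 13.4% ± 2.55 (SD, n = 2). Other classes of these cells shifted as well, with TM7 at 23.8%, 22.2% and 8.94% and TM8 at 21.1%, 18.4% and 7.97%. For such shifts the paper does not exclude variability in dissection. Among male-typed cells, TM2 was 3.75% and 5.36% of kept control cells and 3.87% of mutant ones. These intervals cover counting error only, and with 2 libraries against 1 no permutation test can give a p under 1 in 3.

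The targeted gene was examined next. *Angpt1* (chr15:42424723-42676977), the ligand of the TEK receptor, had 140 and 107 UMIs in control TM2 cells and 4 in *Angpt1*ΔNC. It was positive in 25.0% and 15.5% of control TM2 cells and in 1.23% of mutant ones, against 0.303% and 0.494% of control surface epithelial cells. The controls and the mutant did not overlap in level (0.571, 0.288 and 0.00963). The log2 fold change of the TM2 sums was -4.89 (SE 0.67, adjusted p = 0.00851, edgeR quasi-likelihood test with Benjamini-Hochberg adjustment, as for all adjusted p values here), and -4.57 in male-typed cells (adjusted p = 0.0142). With DESeq2's size factors in edgeR the adjusted p was 0.0562. In the controls TM2 lay below the other TM classes together, which had 1.62 and 1.45. Of 5 sex-linked genes tested, *Xist*, the X-inactivation RNA, was higher in the mutant and the Y-linked *Ddx3y* and *Eif2s3y* were lower.

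Across 10400 genes tested, 50 were higher and 95 lower in *Angpt1*ΔNC TM2 cells at an adjusted p under 0.05. This was 1.39% of the genes tested, 0.481% higher and 0.913% lower, and the median log2 fold change of all genes was -0.0028. There were 21 higher and 31 lower with DESeq2's size factors in edgeR, and 16 and 68 with DESeq2. The spread came from the 2 controls (1 residual degree of freedom), and the single mutant library was taken to vary as they do. All 145 lay outside the range of the 2 controls, and 34 of them, 10 higher and 24 lower, were called in the same direction in 9 settings, this test and its alternatives that keep all 3 libraries. Leaving out sex-linked genes, 47 of 49 higher and 93 of 93 lower genes were beyond both controls in the male-typed and in the female-typed mutant cells taken separately. The same cells gave the calls, so neither this count nor the 145 outside the control range is a test of them. The shares beyond both controls over all genes tested were not computed. The test in male-typed cells alone called 73 of the 145 in the same direction, and DESeq2 called 76. Most of these differences were not particular to TM2. Of 143 that had a value in the other TM classes together, 135 had the same sign there and 104 were called in the same direction. In those classes 560 of 13658 genes were called higher and 809 lower. The share with the same sign over all genes tested was not computed. All classes came from the same 3 libraries, so this agreement is a description and not a separate test.

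None of the 4 markers passed the test. *Cdh2* had a log2 fold change of -0.58 (SE 0.23, adjusted p = 0.29), with a mutant level of 0.806 under both controls, and *Col8a2* had 0.35 (SE 0.19, adjusted p = 0.46), with its mutant level of 6.34 over both. *Atp1b1* and *Cldn10*, at 0.03 (SE 0.21) and -0.16 (SE 0.28), lay within the control range. Of the 20 leading genes, *Nefl*, the light chain of neurofilaments, was the one called, at 1.05 and 1.03 in the controls and 0.373 in *Angpt1*ΔNC (log2 fold change -1.52, SE 0.22, adjusted p = 0.0106). In male-typed cells its value was -0.96 (adjusted p = 0.119). The 20 genes were ranked on their control levels, which favors a fall in the mutant. Their count of calls is therefore not read as a result, and over all genes tested 1.39% were called. *Nefl* was also lower in the mutant in TM3, at 0.607 and 0.751 in the controls and 0.191 in *Angpt1*ΔNC.

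Gene groups tied to the work of the corneal endothelium had no member called, which is near the share of 1.39% called among all genes for lists of this size. The same holds for the other lists of up to 30 genes with none called. None of 25 tested genes of the fluid pump and ion transport passed (median log2 fold change 0.07). Among its highest members were the transporter chaperone *Bsg*, at 10.2, 12.9 and 11.7, and the water channel *Aqp1*, at 4.94, 5.54 and 6.11. The ion cotransporter *Slc12a2*, at 4.01, 3.82 and 2.76, was under both controls in the mutant without passing (log2 fold change -0.58, SE 0.18, adjusted p = 0.19).

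Of 30 tested genes of Descemet and basement membranes none passed (median 0.01), with *Sparc*, a collagen-binding matrix protein, at 32.1, 31.2 and 33.8, and *Col12a1* at 12.1, 11.1 and 7.55 (adjusted p = 0.126). The 20 junction genes had a median of -0.08 and the 16 anterior segment transcription factors one of -0.13. The 7 tested genes of endothelial corneal dystrophies had a median of 0.28, and among them were *Col8a2* and *Tcf4*, the E-box factor of Fuchs dystrophy (1.98, 2.00 and 2.63). Antioxidant genes (27 tested, median 0.08), glucose and lactate genes (20, -0.04) and cell cycle genes (11, -0.22) also had none, and *Cdkn1a*, a cell cycle inhibitor, was at 8.48, 6.93 and 7.17.

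Signals to vessels were represented by the fall of *Angpt1*, the 1 called gene of 11 tested in the angiopoietin-TEK list (median -0.20). This was 9.09% of the list, against 1.39% of all genes tested. *Angpt1* is the gene that Cre removes, so this share is not read as a result about the list. The other 10 genes tested were not called. *Svep1*, an extracellular matrix protein placed in this list, was at 0.862, 1.14 and 1.60 (log2 fold change 0.67, SE 0.22, adjusted p = 0.198). None of 19 tested genes of vessel and pressure signals (median -0.20) and none of 22 of TGF-beta and BMP signaling (-0.08) passed. The 18 cholesterol synthesis genes, of which *Idi1* led TM2, had a median of -0.31 with none called. Of the meshwork markers (8 tested, median -0.59) and the keratocyte markers (5 tested, -0.33) none passed, and *Chil1*, a chitinase-like glycoprotein of the meshwork, was at 6.27, 7.71 and 4.08 (adjusted p = 0.0667).

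The groups that held called genes outside those functions were small, so their counts are not read as results about the lists. Over all genes tested 1.39% were called, against 9.52% of the interferon list and 11.1% of the dissociation stress list. In the interferon list (21 tested), *Ifit3*, an antiviral protein, rose from 0.346 and 0.157 to 1.15 (log2 fold change 2.18, SE 0.29, adjusted p = 0.00723), while *Ifi203*, an interferon-inducible nuclear protein, fell from 0.551 and 0.577 to 0.268 (-1.30, SE 0.23, adjusted p = 0.0283). The *Ifi203* call was lost with DESeq2 (adjusted p = 0.247) and with its size factors in edgeR (adjusted p = 0.0691). The list had a median of 0.03, and it does not hold *Gbp2b* and *Ifi202b*, other interferon-induced genes that were called. Of 18 dissociation stress genes, *Nr4a1* and *Dusp1*, an immediate early receptor and phosphatase, fell, at log2 fold changes of -1.92 (adjusted p = 0.0149) and -1.18 (adjusted p = 0.0262), and the list had a median of -0.28. In male-typed cells *Dusp1* had -0.46 (adjusted p = 0.401). Neither gene passed with DESeq2's size factors in edgeR (adjusted p = 0.0518 and 0.0733), and *Nr4a1* did not with DESeq2 (adjusted p = 0.105).

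Markers of neighboring tissues were also called. *Krt15*, a keratin of the limbal epithelium, had 8, 13 and 46 UMIs in TM2 (log2 fold change 2.21, SE 0.42, adjusted p = 0.0366), and its level in the surface epithelium was 11.2, 12.5 and 20.98. The call was lost with DESeq2 (adjusted p = 0.628), with its size factors in edgeR (adjusted p = 0.0835) and in male-typed cells (2.60, adjusted p = 0.0678). Of the surface epithelium list it was 1 of 4 called (25%, against 1.39% of all genes tested). *Krt12* was at 0.175, 0.149 and 0.104. *Ttr*, a carrier protein abundant in pigment epithelium, had 34, 105 and 4 UMIs (-3.93, adjusted p = 0.0202), and 1 cell of control 2 held 56.2% of its UMIs there. With DESeq2's size factors in edgeR its adjusted p was 0.0797. *Ttr* was the 1 called gene of 5 tested in the pigment cell list (20%). The part of RNA from other cells in these genes was not tested.

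Sex-linked genes aside, the gene that rose with the smallest adjusted p was *Il11ra1*, a receptor chain for interleukin-11. Its level went from 0.695 and 0.737 in the controls to 6.05 in *Angpt1*ΔNC (log2 fold change 2.97, SE 0.18, adjusted p = 4.11e-05), and to 4.70 in male-typed mutant cells. The rise was not particular to TM2, since its level went from 0.945 and 0.704 to 6.56 in TM1. In TM3 it went from 0.910 and 0.998 to 6.08. The copy *Gm13305* fell from 5.91 and 6.14 to 1.28 (-2.39, SE 0.20, adjusted p = 0.00046). Of the 50-base words of the *Il11ra1* transcript ends, 47.4% also occur in *Gm13305*, and the sum of the pair was 6.61, 6.88 and 7.33. How reads were assigned between these genes was not tested. *Gm13305* differed between the male-typed and female-typed mutant cells, at 3.91 and 0.115, and in male-typed cells its fold change was -0.62 (adjusted p = 0.168). The mutant pool held 2 to 3 mice of mixed strain, so sex and the single mouse cannot be told apart here.

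Complement and ribosomal genes with copies were also called, and the part of reads split between copies was not tested. *C1rb* (chr6:124570294-124581171), a complement protease gene, had 187 and 444 UMIs in the controls and 0 in the mutant, at least 94.8-fold lower (adjusted p = 0.000204). Its copy *C1ra* was at 0.635, 0.582 and 1.47, and the sum of the pair was 1.42, 1.69 and 1.47. *C1s2* had 97, 150 and 1 UMIs, while the sum with *C1s1* was 1.06, 0.992 and 1.67.

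The ribosomal pseudogenes *Gm10260* and *Gm11361*, which share 58.5% and 86.3% of their end words with other genes, had 728, 1550 and 7 UMIs and 161, 234 and 14 UMIs. *Rps18*, the parent gene, was at 6.00, 6.32 and 15.3, and the sum of the 3 was 9.59, 10.7 and 15.3. The rise of *Rpl29*, a ribosomal protein gene with 47.5% of its words in other genes (0.772, 0.845 and 2.55), and the fall of the copy-bearing *BC023719* (0.787, 0.981 and 0.0192) are uncertain because of these copies. Of the 145 genes, 29 shared over 20% of these words with another gene and 99 shared none.

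The lower-level genes that rose were of mixed function. *Gbp2b*, an interferon-induced GTPase, had 2, 2 and 94 UMIs, a mutant to control ratio of 52.1 (exact 95% interval 19.7 to 195). This interval covers the counting error of pooled UMIs only, and no spread between cells or libraries. *Ptx4*, a pentraxin, went from 0.0836 and 0.0431 to 0.610, and *Nnmt*, the nicotinamide methyltransferase, from 0.0981 and 0.0971 to 0.458. *Mmp9*, the gelatinase, had 5, 2 and 77 UMIs and no UMI in male-typed mutant cells. *Psmc3ip*, *Serpina3n* and *Elovl7* had log2 fold changes of 2.13, 2.95 and 2.54, and 1 mutant cell held 27.6% of the *Elovl7* UMIs. In male-typed cells these 3 genes did not pass, at 1.54, 2.21 and 1.17 (adjusted p = 0.126, 0.172 and 0.379), and *Psmc3ip* did not pass with DESeq2 (adjusted p = 0.0636). Without control 2 the value of *Elovl7* was 3.28.

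Among the genes that fell, *Cyp26a1*, which breaks down retinoic acid, had levels of 0.539, 0.655 and 0.0472 (log2 fold change -3.60, SE 0.32, adjusted p = 0.000543). In male-typed cells its value was -3.56 (adjusted p = 0.000672). *Tnmd*, the tendon and stromal glycoprotein tenomodulin and one of the most uneven TM2 genes, fell from 6.07 and 4.55 to 1.31 (-1.97, SE 0.22, adjusted p = 0.00326), with 34.3%, 21.4% and 13.5% of cells positive. It was picked for the text after its values were seen.

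The hemoglobin genes *Hbb-bs*, *Hba-a1* and *Hbb-bt* were also among the 10 lower genes of smallest p, at log2 fold changes of -5.84, -6.75 and -7.07, but single cells set those values. In control 1, 1 TM2 cell held 4597 of 4645 hemoglobin UMIs, and in control 2, 2 cells held 9578 of 9627, while the mutant had 103 in all. Without these 3 cells the value of *Hbb-bs* was 1.36 (adjusted p = 0.0454) and that of *Hba-a1* was 0.08. *Hbb-bs* was positive in 9.57%, 5.95% and 20.3% of TM2 cells.

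**Figure D4:**
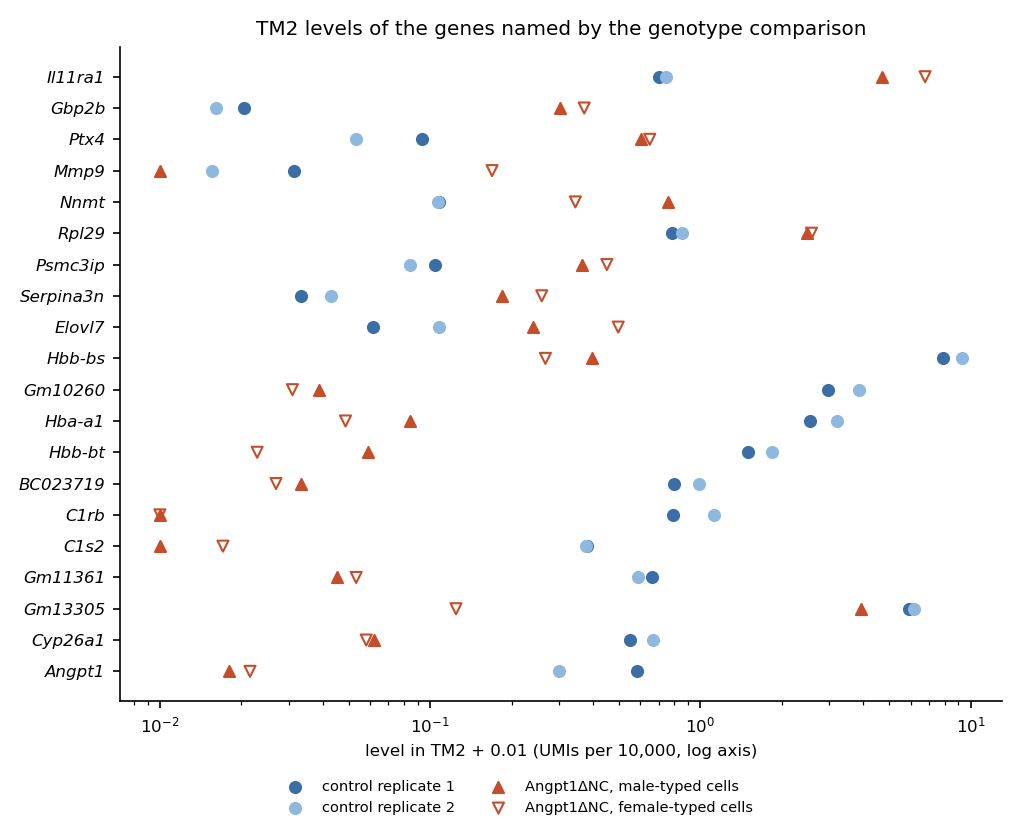
TM2 levels with 0.01 added (UMIs per 10000, log axis) of 9 higher and 10 lower genes of smallest adjusted p and of *Angpt1*, with circles for the controls and triangles for the male-typed (filled) and female-typed (open) *Angpt1*ΔNC cells. Except for *Mmp9*, which is at 0 in male-typed cells, both triangles of each gene lie on the same side of both circles, and *Gm13305* has its triangles farthest apart (3.91 and 0.115).

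Whether genotype differences in TM2 were unlike those in related classes was then asked. The difference in TM2 was tested against that in TM3, TM4 and TM1, other classes of the reclustering, with each library as a block. The fold changes of 31 of 10332 genes differed from those in TM3 (0.3%, 7 higher and 24 lower in TM2), 75 of 11070 from those in TM4 (0.678%, 20 and 55) and 36 of 10769 from those in TM1 (0.334%, 16 and 20). Without the block the numbers were 2, 4 and 4. The classes share the same 3 libraries and hold fewer mutant cells (126 in TM3 and 115 in TM1).

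*Ifi203* fell in TM2, from 0.551 and 0.577 to 0.268, but had log2 fold changes of 2.55, 2.62 and 2.51 in the others, where control levels were at most 0.0888. The differences were -3.85 against TM3, -3.92 against TM4 and -3.82 against TM1 (adjusted p = 0.00171, 0.00182 and 0.00905). Among these classes TM2 had the highest control levels.

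*Cyp26a1* fell by 3.28 log2 units more in TM2 than in TM3 (adjusted p = 0.00248), where its levels were 0.633, 0.485 and 0.447. A fall was not particular to TM2, since its levels were 4.32, 2.57 and 1.08 in TM4 and 3.18, 2.81 and 0.864 in TM7. In TM6 (0.709, 0.544 and 1.10) and TM8 (0.292, 0.750 and 2.14) the mutant was higher. *Dlk1*, a Notch-family ligand that restrains differentiation, was at 1.29, 1.17 and 1.65 in TM2 and at 3.54, 3.33 and 0.419 in TM3, a difference of 3.37 log2 units (adjusted p = 8.70e-07). *Gpha2*, a glycoprotein hormone subunit, was at 4.51, 2.63 and 2.52 in TM2 and at 0.507, 0.624 and 4.50 in TM3, a difference of -3.19 (adjusted p = 7.79e-06). TM2 levels of both genes did not pass the genotype test (adjusted p = 0.273 and 0.508). In male-typed TM2 cells both did, with log2 fold changes of 1.58 for *Dlk1* (adjusted p = 0.000295) and -1.13 for *Gpha2* (adjusted p = 0.0467).

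*Apoe*, the lipid carrier apolipoprotein E, had log2 fold changes of opposite sign, at -0.68 in TM2 (not called, adjusted p = 0.242), 0.32 in TM3 and 0.61 in TM4. For other genes the larger fold change was in the other class. *Cldn10* had -0.16 in TM2 and 1.77 in TM4, where it went from 0.756 and 1.05 to 3.02, and *Clvs1*, another leading gene of TM2, had 0.37 in TM2 and 2.86 in TM3. Both genes helped to define the classes compared, so a shift of cells between classes cannot be told apart from a change within them. *Tac1*, which encodes substance P, had 0.01 in TM2 and -3.67 in TM1, where it went from 4.72 and 4.88 to 0.423. This contrast is unsteady, as the TM2 value was -3.47 in male-typed cells and -1.07 without its highest cell. *Tac1* was also lower in the mutant in TM3 (0.711, 1.11 and 0.161) and TM4 (0.268, 0.333 and 0.0241).

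**Figure D5:**
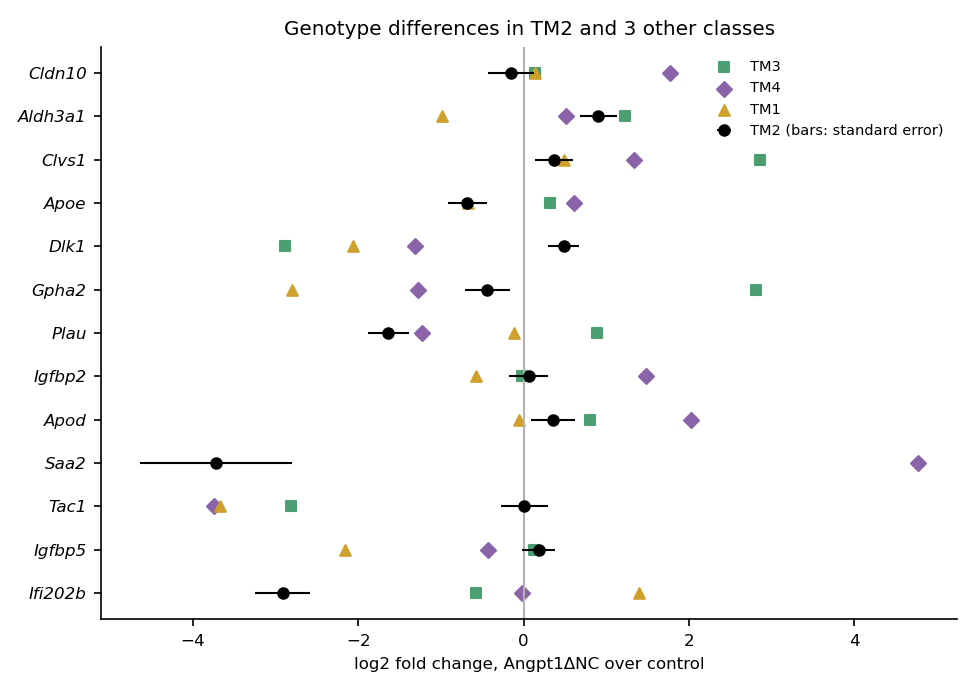
Log2 fold change, *Angpt1*ΔNC over control (x axis), of the genes with the smallest adjusted p for a difference between TM2 (black, bars are standard errors) and TM3, TM4 or TM1 (colored symbols, where fitted). *Dlk1* lies at 0.49 in TM2 and at -2.89 in TM3, and *Gpha2* at -0.44 in TM2 and at 2.81 in TM3.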

How the data were processed

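RNA of single cells was counted in 2 control libraries and 1 *Angpt1*ΔNC library. The authors deposited UMI counts per gene and cell for called cells (31053 genes), with a table of cluster labels for kept cells. Per the submitters' processing notes, Cell Ranger 2.1.1, Seurat 3.1.3 and mm10 were used, while the matrix headers name software 3.0.2. Doublets had been removed by the authors with scDblFinder, and no further cell filter was applied. The table's 3467 columns of integrated values were not used. TM2 was every cell labelled TM_2.

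Counts of TM2 cells were summed per library and tested with edgeR 4.0.16 (R 4.3.3) by quasi-likelihood, after TMM scaling and the default filter on low counts, with an adjusted p under 0.05 as the call. Differences between classes used the class by genotype term with the library as a block. Nothing beyond the pool of mice per library identifies replicates, so p values measure the spread between these libraries. Scripts were tested on simulated data. Alternatives were DESeq2 1.42.0, its size factors, no filter, equal cell numbers, male-typed cells, cells with at least 2 markers and leaving out a control. Leaving out hemoglobin-rich cells, or each gene's highest cell per library, was chosen after seeing the data.

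Genes were named by rule: the markers, the 10 higher and 10 lower called genes of smallest adjusted p with an absolute log2 fold change of at least 1, *Angpt1* and sex-linked genes, the called and up to 4 highest genes of each list, the 20 leading genes, and up to 5 genes per class comparison. Some genes that this rule names are not reported here. The members and lists were chosen with earlier results of these data known. Shares have exact binomial intervals, and bounds against a group at 0 assume 3 counts in it. Sequences came from RefSeq (GRCm38.p6) and gene positions from GENCODE M21. Tables were handled in Python 3.11.15 with pandas 2.3.3.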

Additional observations from a re-analysis of the deposited data

Results flagged for a closer look

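The genotype difference in TM2 differed from that in another class, by the edgeR quasi-likelihood test of the class by genotype term, for 31 genes against TM3, 75 against TM4 and 36 against TM1. The values below are TM2 minus the other class in log2 fold change, and the cause of none was tested.

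Against TM3, values were -2.53 for *Clvs1*, -1.01 for *Apoe*, 3.37 for *Dlk1*, -3.19 for *Gpha2*, -2.51 for *Plau*, which encodes urokinase, -3.28 for *Cyp26a1* and -3.85 for *Ifi203*. *Plau* fell in TM2 (log2 fold change -1.64, adjusted p = 0.0138, or 0.0547 with DESeq2's size factors in edgeR) and had 0.88 in TM3.

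Against TM4, values were -1.91 for *Cldn10*, -1.30 for *Apoe*, -1.40 for *Igfbp2*, -1.67 for *Apod*, -8.50 for *Saa2*, 2.03 for *Nnmt*, -1.16 for *Gm13305*, -1.84 for *Nr4a1*, -1.28 for *Dusp1* and -3.92 for *Ifi203*. *Saa2*, an acute-phase protein, had TM2 levels of 0.203, 0.993 and 0.0501 and had an adjusted p of 0.0989 in TM2 alone. It passed there in male-typed cells (-4.21, adjusted p = 0.0469), with equal cell numbers (0.035), without the filter, with at least 2 markers, without hemoglobin-rich cells and without its highest cell, with fold changes of -3.74 to -3.55 in these last 5 settings. It did not pass with DESeq2 (0.825) or its size factors in edgeR (0.23). Without control 2 the value was -2.13.

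Against TM1, values were 1.90 for *Aldh3a1*, 2.39 for *Gpha2*, 3.68 for *Tac1*, 2.33 for *Igfbp5*, -4.34 for *Ifi202b*, 11.1 for *Mmp9*, 3.97 for *Ifit3* and -3.82 for *Ifi203*. The *Mmp9* value has a standard error of 1.57 and rests on 77 mutant UMIs in TM2. That of *Tac1* is unsteady, as its TM2 log2 fold change was -3.47 in male-typed cells. *Ifi202b*, an interferon-induced gene, fell in TM2 from 0.582 and 0.415 to 0.0697 (log2 fold change -2.91, adjusted p = 0.00326).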

How the results depend on the processing

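The number of genes called in TM2 depended on the setting. Against 145 it was 84 with DESeq2 (16 higher and 68 lower, with 604 genes given no adjusted p), 52 with its size factors in edgeR (21 higher and 31 lower), 550 without the filter on low counts, 427 in cells with at least 2 markers, 244 without hemoglobin-rich cells and 393 without each gene's highest cell, the last 2 chosen after seeing the data. Leaving out a control leaves no spread within a group, so it gave fold changes and no count. The number was 214 with equal cell numbers and 181 in male-typed cells.

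Differences between classes numbered 92 (TM3), 365 (TM4) and 204 (TM1) without the filter. With no replicate block for the library they numbered 2, 4 and 4. No paired analysis was possible because the genotypes share fewer than 2 replicate numbers.

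The TM2 share of kept cells, 0.534 points over the control mean, was -0.686 in male-typed cells and -0.161 to 1.23 without a control, and the share of TM cells was 1.54 to 5.14 points over. The *Cdh2* share difference of -9.86 points was -4.95 and -2.24 after thinning to 2000 and 1000 UMIs and -5.73 at 2 or more UMIs. That of *Col8a2*, 3.28, was 11.2 after thinning to 1000 and 11.3 at 2 or more UMIs.

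Of the 34 named genes called, 29 were called with DESeq2, 25 with its size factors and 22 of 32 in male-typed cells. Fold changes that turned sign were those of *Atp1b1* (-0.38 in male-typed cells, -0.11 without its highest cell, -0.17 without control 1), *Cldn10* (0.067 in male-typed cells, -0.48 to 0.27 without a control), *Hbb-bs* and *Hba-a1* (1.36 and 0.080 without hemoglobin-rich cells), *Ddx3y* and *Kdm5d* (0.33 and 1.06 in male-typed cells), *Igfbp2* (-0.18 to 0.35 without a control) and *Tac1* (-0.011 with DESeq2, -0.012 without the filter, -3.47 in male-typed cells, -1.07 without its highest cell, -0.29 to 0.32 without a control). The causes were not tested.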
